A study of Mus musculus with 6 samples.

Results

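The mitosis genes described here are 36 mouse genes whose products take a cell into and through division, namely entry cyclins and Cdk1, spindle kinases, checkpoint and kinetochore proteins, motors, activators of the anaphase-promoting complex and proteins of cytokinesis. They were chosen by symbol, each through the probe set annotated to that gene alone with the highest mean over 6 arrays. With that rule 35 of the 36 were measured among 18193 genes, and Ccnb1, cyclin B1, which the annotation used does not list, was not analysed here. The 3 knockout pools are labelled Gpx4 KO, meaning that the gene for glutathione peroxidase 4, the selenoenzyme that detoxifies peroxidised membrane lipids, was removed by K14-cre, a recombinase driven by the keratin 14 promoter of basal keratinocytes. The 3 other pools are labelled control and come from the same litters A, B and C, 1 knockout and 1 control pool to a litter. The labels do not say whether control pups carried cre or floxed alleles, and cells in which keratin 14 was never active would keep Gpx4. Both groups are primary keratinocytes, the main cell of the epidermis, prepared from the skin of newborn C57BL6/FVB mice and grown in media with 100 nM sodium selenite. Cells of several pups were pooled, so an array is 1 pool and not 1 animal. A level below is a linear intensity of a 1-colour Affymetrix array after quantile normalization, and a difference is knockout minus control in log2(intensity + 16), given with its standard error from limma with litter as a block. Folds are on the same scale, which understates the change of dim genes.

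Entry into mitosis is driven by cyclin A and cyclin B bound to Cdk1. The chromosomes then condense, kinetochores form on their centromeres and catch spindle microtubules, and the spindle checkpoint holds the anaphase-promoting complex until every kinetochore is attached. Cdc20 and Ube2c then let that complex mark cyclins and securin for destruction, after which the cell divides. Most of these genes are transcribed in late S, G2 and M phase and are silent in resting cells, so in the epidermis they are used as signs of dividing basal cells. Their promoters are known for CCAAT boxes, bound by NF-Y, and for the cell cycle gene homology region, or CHR, bound by the DREAM and MuvB complexes.

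The promoters of 5 members are shown because 4 of them belong to members with some of the largest differences and the fifth to Ect2, which differed in the other direction. Each run is the 250 bases before the RefSeq start of the gene in GRCm38.p6, on the strand of the gene and 5′ to 3′. Capitals mark the motifs, each searched on both strands: the box spelled CCAAT, and the CHR spelled TTTGAA or, in its variant form, TTCGAA. The windows lie upstream of the transcript, at chr9:70421555-70421804 on the minus strand for Ccnb2, chr4:118437344-118437593 on the minus strand for Cdc20, chr19:37376132-37376381 on the plus strand for Kif11, chr7:135716380-135716629 on the minus strand for Mki67 and chr3:27153879-27154128 on the minus strand for Ect2.
Ccnb2: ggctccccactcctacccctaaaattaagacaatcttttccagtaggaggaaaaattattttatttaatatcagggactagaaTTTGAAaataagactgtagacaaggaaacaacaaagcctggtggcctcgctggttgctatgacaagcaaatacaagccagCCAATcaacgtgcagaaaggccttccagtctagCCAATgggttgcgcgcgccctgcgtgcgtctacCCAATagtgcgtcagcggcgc
Cdc20: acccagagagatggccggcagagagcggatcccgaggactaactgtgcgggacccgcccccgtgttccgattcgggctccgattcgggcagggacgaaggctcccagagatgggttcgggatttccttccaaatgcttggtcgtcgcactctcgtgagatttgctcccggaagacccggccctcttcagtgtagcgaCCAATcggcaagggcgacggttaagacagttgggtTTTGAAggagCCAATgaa
Kif11: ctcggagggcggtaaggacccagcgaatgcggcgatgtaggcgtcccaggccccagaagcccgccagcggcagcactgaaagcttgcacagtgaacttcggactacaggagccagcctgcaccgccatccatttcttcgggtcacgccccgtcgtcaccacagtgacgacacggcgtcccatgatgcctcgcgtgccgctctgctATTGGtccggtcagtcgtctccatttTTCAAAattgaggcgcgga
Mki67: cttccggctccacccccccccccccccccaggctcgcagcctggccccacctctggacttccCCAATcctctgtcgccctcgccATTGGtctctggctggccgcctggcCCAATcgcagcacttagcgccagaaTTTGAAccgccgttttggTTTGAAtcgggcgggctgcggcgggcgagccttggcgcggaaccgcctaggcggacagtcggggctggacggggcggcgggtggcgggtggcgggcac
Ect2: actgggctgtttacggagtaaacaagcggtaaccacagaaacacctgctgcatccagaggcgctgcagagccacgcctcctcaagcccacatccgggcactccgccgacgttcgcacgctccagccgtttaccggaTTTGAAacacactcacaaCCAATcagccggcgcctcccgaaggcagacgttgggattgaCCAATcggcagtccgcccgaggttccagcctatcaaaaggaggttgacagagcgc

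Counting back from the start, the 3 CCAAT boxes of Ccnb2 begin at -87, -54 and -21, each 33 bases from the next. Cdc20 has 2 CCAAT boxes and Kif11 has 1, with a CHR at -18 in Cdc20 and at -19 in Kif11. In Mki67 the 3 CCAAT boxes lie farther out, the nearest at -141, and 2 CHR matches follow them. The Ect2 window shown, the first of 2, has 2 CCAAT boxes and a CHR, and the second has 3 CCAAT boxes and a CHR. Ect2 was higher in knockout and holds the same letters as members that were lower.

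Of the 35 measured members 29 had a promoter in the RefSeq table, in 31 windows. CCAAT was found on either strand in 80.6% of these windows, against 33.8% of the 32851 windows of all genes, and at least 2 CCAAT boxes in 54.8%, against 10.1%. The CHR was found in 38.7% of members' windows, against 17.1% of all, and both motifs in 35.5%, against 6.02%. The last base of a match to 1 motif can be the first base of a match to the other, and windows were not matched on base composition. Over the 31 windows 39 of 57 CCAAT matches lay within 100 bases of the start, as did 8 of 17 CHR matches. Ect2 and Prc1 have 2 overlapping windows each, so matches that both windows hold were counted again. Such positions were not counted over all promoters. The 11 members with a CHR match had a median difference of -0.33 and the 18 with none -0.19, which is given as a description.

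**Figure D1:**
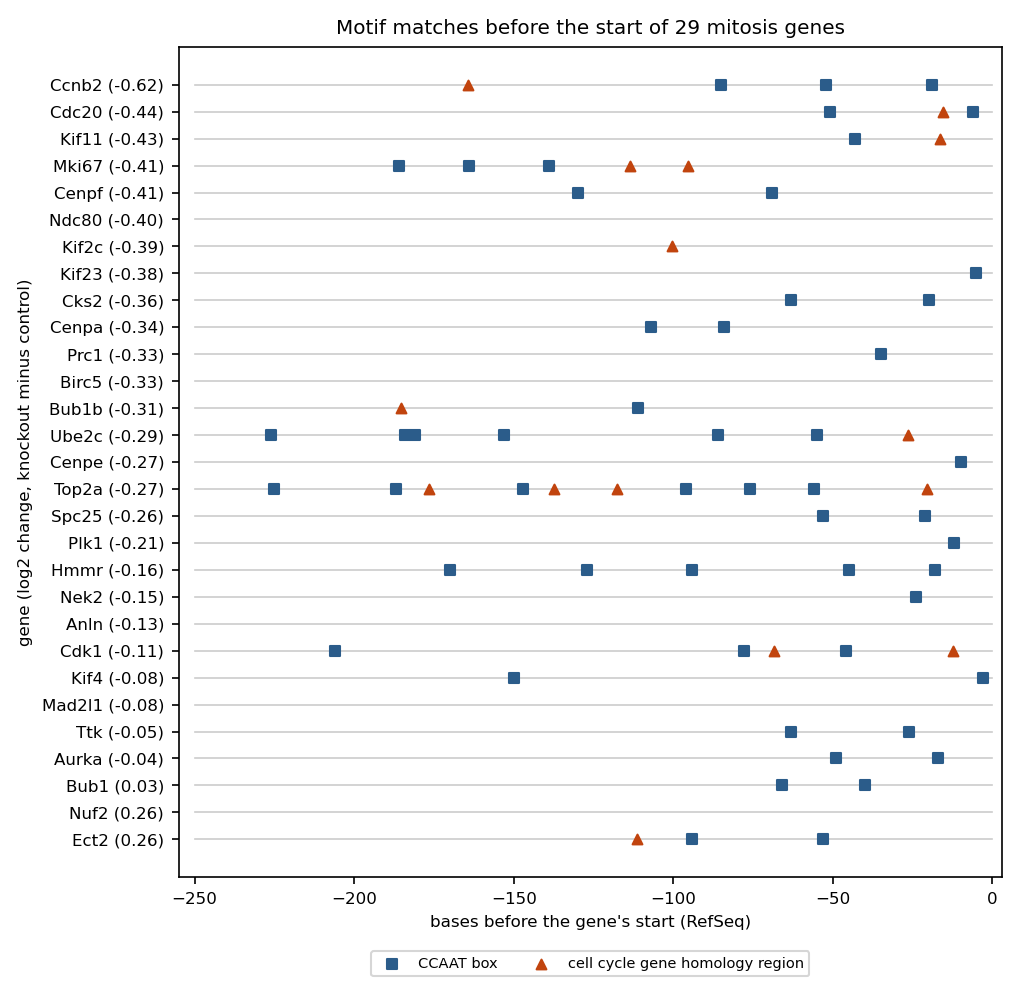
Position of CCAAT and CHR matches in the 250 bases before the start of 29 mitosis genes, in bases from the start on the horizontal axis, 1 row for a gene with its first window in the RefSeq table, ordered by the log2 difference in brackets. Squares (CCAAT) lie mostly in the right part near the start, triangles (CHR) are fewer, and Ect2 in the bottom row carries both. The CHR match of Prc1 lies only in its second window and is not drawn.

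The targeted gene was checked first. Gpx4 had levels of 212, 259.7 and 216 in the knockout pools of litters A, B and C, against 497, 551 and 536 in the control pools, a difference of -1.15 ± 0.091 (adjusted p = 0.0206). All 3 knockout pools were lower and kept some signal, and the sources used here do not say whether the probe set lies in the removed part of the gene. Sex-linked genes separated the groups as well. Xist, expressed from the inactive X, had levels of 1229, 1214 and 1259.8 in knockout, against 502, 389 and 536 in control (adjusted p = 0.0194). Eif2s3y, on the Y, had levels of 3.2, 0.7 and 4.6 in knockout, against 156, 178 and 185 in control (adjusted p = 0.00664). Knockout pools thus lacked Y-linked signal and control pools carried it in every litter, so for every difference below the genotype and the sex of the pooled pups cannot be told apart. The control pool of litter C also stood apart from the other 2 controls, being the brightest array as deposited (trimmed mean 114.3, against 72.8 and 89.6) and having a summed fibroblast marker level of 1228, against 442 and 416. Arrays here are few, and the p-values measure the spread between these pools only.

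Most mitosis genes were modestly lower in the knockout pools, and none of them passed the threshold alone. Of the 35 members 31 were lower in knockout (88.6%), with a median difference of -0.27, while over all 18193 genes the median was 0 and 50% were lower. At a Benjamini-Hochberg adjusted p under 0.05, 0 members were called lower and 0 higher, beside 0.401% and 0.22% of all genes. At an unadjusted p under 0.05, 19 members were lower (54.3%), beside 9.47% of all genes, and 1, Ect2, was higher, beside 8.64%. All genes include many dim ones. Without the 40% dimmest probe sets 18 members were lower at that limit, beside 1581 of 12192 genes. In 24 members (68.6%) the knockout pool was lower in all 3 litters, beside 20.1% of all genes. All 3 knockout pools lay below all 3 control pools for 19 members (54.3%), beside 10.8% of all genes, and all 3 lay above for 0 members, beside 9.77%. With 6 arrays the smallest adjusted p among members was 0.0572, for Ccnb2. Without litter C, 5 members were called lower (Ccnb2, Cenpa, Kif23, Cdc20 and Mki67), beside 4.52% of all genes, and 0 higher, beside 4.19%.

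Differences were small in size. They ran between -0.62 (Ccnb2) and 0.26 (Ect2), with quartiles of -0.37 and -0.09, and the medians of litters A, B and C were -0.28, -0.26 and -0.22. The summed level of the 35 members was 9142, 9993 and 10555 in the knockout pools of litters A, B and C, against 11266, 11878 and 12710 in the control pools. The groups did not overlap in this sum, and in both of them litter A was lowest and litter C highest. As these are bulk cultures, fewer dividing cells and less RNA per dividing cell cannot be told apart.

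**Figure D2:**
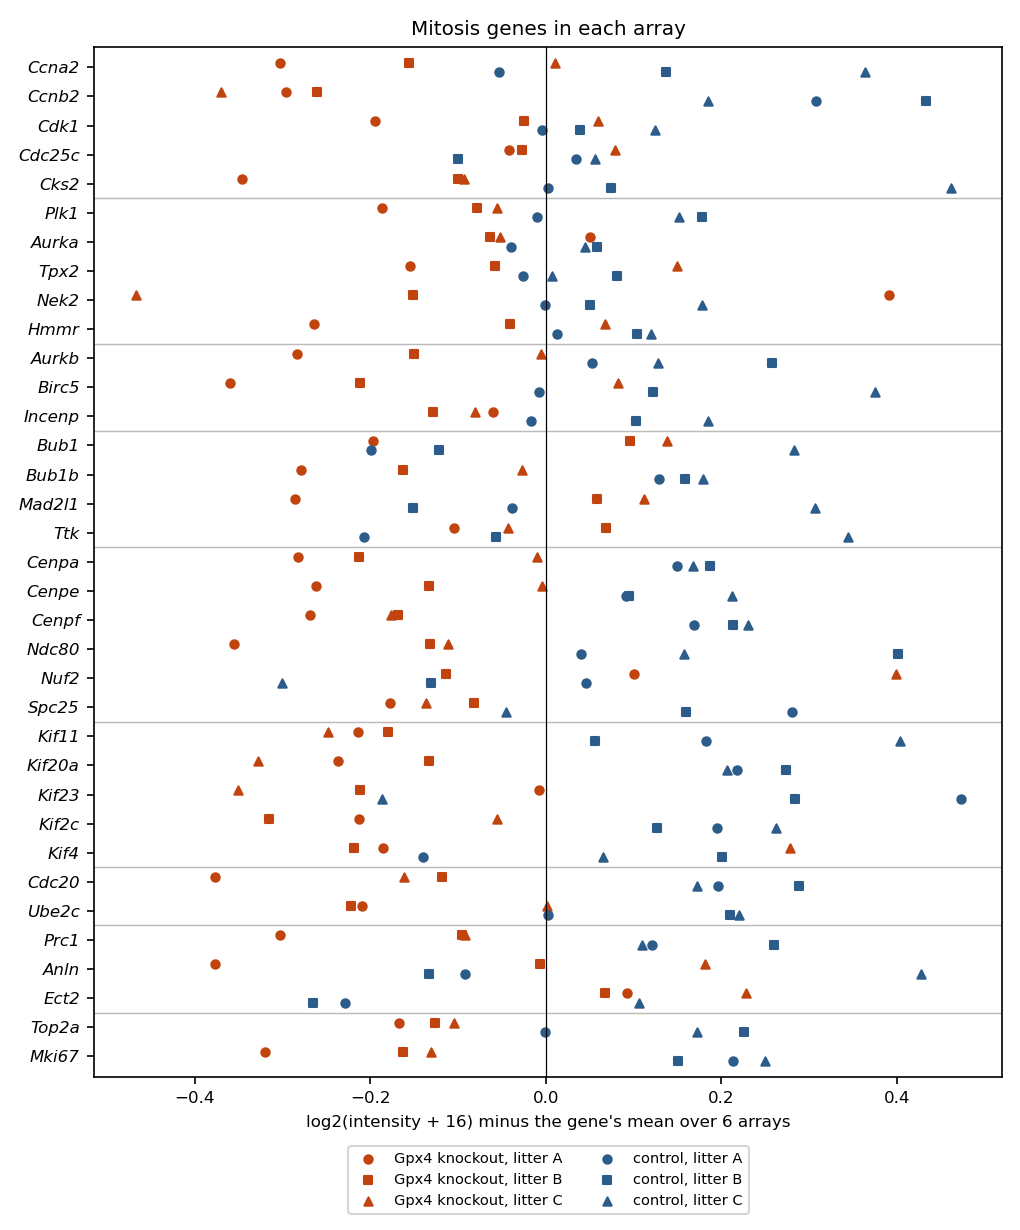
Level of each of the 35 mitosis genes in the 6 arrays, as log2(intensity + 16) minus the gene's mean on the horizontal axis, with the litter as the shape of a point and genes ordered by role down the page. Knockout points lie mostly left of 0 and control points mostly right of it, with medians over the 35 genes of -0.21, -0.13 and -0.04 in knockout and 0.01, 0.13 and 0.18 in control (litters A, B and C).

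Cyclins and their partners at mitotic entry were lower in 4 of 5 cases. At an unadjusted p under 0.05, 3 were lower, beside 9.47% of all genes. Ccnb2, the cyclin B that sits at the Golgi and activates Cdk1, had levels of 266, 273 and 252 in the knockout pools of litters A, B and C, against 412, 451 and 377 in the control pools. All 3 knockout pools were well below all 3 controls and the litter differences were alike, at -0.60, -0.69 and -0.55. The fitted difference was -0.62 ± 0.088, or 1.53-fold lower (95% interval -0.83 to -0.40, adjusted p = 0.0572).

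Ccna2, the cyclin A that carries cells from S phase to prometaphase, had levels of 279, 311 and 351 in knockout, against 335, 385 and 453 in control (-0.30 ± 0.086, adjusted p = 0.197). Each knockout pool was below the control of its own litter, but litter C's knockout was above litter A's control, so the groups overlapped. Cks2, the small subunit that helps Cdk1 dock on phosphorylated substrates, had levels of 619, 737 and 741 in knockout, against 792, 834 and 1096 in control (-0.36 ± 0.097, adjusted p = 0.174). Its groups did not overlap, and the control of litter C was the highest pool.

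Cdk1 itself, the kinase these cyclins switch on, was nearer to 0 in its difference than Ccnb2, a contrast that was not tested. Its levels were 533, 602 and 639 in knockout, against 610.2, 629.6 and 669 in control (-0.11 ± 0.081, 95% interval -0.30 to 0.09, adjusted p = 0.609). Cdc25c, the phosphatase that removes inhibitory phosphates from Cdk1, had levels of 42.4, 43.0 and 47.5 in knockout, against 45.6, 40.1 and 46.5 in control. Its groups overlapped fully, and its difference of 0.01 ± 0.14 was -0.15 with the intensities as deposited and -0.09 with arrays shifted to the same median. A further probe set of Cdc25c of similar mean intensity (43.15, against 44.17) gave -0.31 ± 0.14, and averaging its probe sets gave -0.15.

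Spindle kinases and their partners differed little. All 5 were lower on average, with a median of -0.15 and none at an unadjusted p under 0.05, beside 9.47% of all genes. Plk1, the polo kinase of entry, spindle assembly and cytokinesis, had levels of 195, 211 and 215 in knockout, against 222, 255 and 250.2 in control (-0.21 ± 0.093, adjusted p = 0.361). Here the groups did not overlap, although the gap between the highest knockout and the lowest control pool was small.

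Aurka, the centrosomal kinase, had levels of 230.2, 212 and 213 in knockout, against 215, 232 and 229 in control (-0.04 ± 0.0995), and Tpx2, which activates Aurka on spindle microtubules, had 213, 229 and 266 in knockout, against 234, 253 and 239.9 in control (-0.04 ± 0.10). Neither separated the groups, and the direction of Tpx2 turned when litter A or litter B was left out. Further, dimmer probe sets of Tpx2 gave -0.50, 0.17 and -0.03, and averaging its probe sets gave -0.10. Hmmr, a spindle-pole protein, was lower in all 3 litters, with levels of 151, 179 and 194 in knockout, against 187, 199.8 and 202 in control (-0.16 ± 0.10, adjusted p = 0.541). Nek2, the kinase that lets centrosomes part, had levels of 169, 111 and 86.2 in knockout, against 125, 130.3 and 144 in control (-0.15 ± 0.20). Its standard error was the largest of the 35, as its litters pointed in opposite directions, at 0.39 in A, -0.20 in B and -0.65 in C.

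The chromosomal passenger complex places Aurkb at centromeres and later at the spindle midzone, with Incenp as scaffold and Birc5 (survivin) as targeting subunit. Its 3 members were lower in all 3 litters, as were 20.1% of all genes, and their median was -0.29. Birc5 had levels of 209.9, 234 and 291 in knockout, against 272, 299.5 and 359.8 in control (-0.33 ± 0.089, adjusted p = 0.178), with overlap between groups, as litter C was high in both. Aurkb had levels of 97.8, 109 and 122 in knockout, against 128, 149.6 and 135 in control (-0.29 ± 0.12, adjusted p = 0.318). Aurkb did not overlap between groups, and neither did Incenp, whose levels were 479, 456 and 472 in knockout, against 494, 538 and 571 in control (-0.18 ± 0.088, adjusted p = 0.413). Averaging probe sets gave -0.18 for Aurkb and -0.03 for Incenp.

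Spindle checkpoint genes were divided. Bub1b, which encodes BubR1 of the mitotic checkpoint complex, had levels of 98.3, 108 and 120.1 in knockout, against 136, 139 and 141 in control (-0.31 ± 0.11, adjusted p = 0.275), and was the checkpoint member whose groups did not overlap. Bub1, the kinase that recruits checkpoint proteins to kinetochores, had levels of 172, 214 and 221 in knockout, against 172, 182 and 246 in control, a difference of 0.03 ± 0.11, which turned to -0.18 with the intensities as deposited and to -0.12 with arrays shifted to the same median. Its groups overlapped, with litter B higher in knockout and litter C lower.

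Mad2l1, which binds and holds back Cdc20, had levels of 245, 316 and 328 in knockout, against 294, 271 and 378 in control (-0.08 ± 0.12). Ttk, the Mps1 kinase at the head of the checkpoint, had 121, 138 and 126 in knockout, against 111, 125 and 170.3 in control (-0.05 ± 0.14). Both overlapped between groups. In litter B both were higher in knockout, and in litter C both were lower, where the control pool was the highest of the 6.

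At centromeres and kinetochores 5 of 6 members were lower, and the median was -0.30. All 5 were without overlap between groups (83.3% of the 6), beside 10.8% of all genes. Cenpf, a large kinetochore and nuclear matrix protein that accumulates in G2, had levels of 152, 164 and 163 in the knockout pools of litters A, B and C, against 211, 218 and 221 in the control pools. Both groups were tight and far apart compared with their spread (SD 6.71 in knockout and 5.14 in control, n = 3 each), and the litter differences were -0.44, -0.38 and -0.41. The fitted difference was -0.41 ± 0.096, or 1.33-fold lower (adjusted p = 0.139), and averaging its 3 probe sets gave -0.21.

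Cenpa, the histone H3 variant that marks centromeres, had levels of 217, 228 and 265 in knockout, against 298, 306 and 302 in control (-0.34 ± 0.0994, adjusted p = 0.204). Control pools were nearly equal, and the knockout of litter C came closest to them. The other 2 probe sets of Cenpa were dimmer and gave 0.06 and 0.11, and averaging all 3 gave -0.06 (adjusted p = 0.817). Cenpe, the kinesin that moves chromosomes to the metaphase plate, had levels of 102, 113 and 125 in knockout, against 134, 134 and 147 in control (-0.27 ± 0.11, adjusted p = 0.331).

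Ndc80, Nuf2 and Spc25 are subunits of a single complex that grips the microtubule, and Nuf2 did not share the sign of the other 2, a contrast that was not tested. Ndc80 had levels of 62.0, 75.1 and 76.4 in knockout, against 86.6, 116 and 95.3 in control (-0.40 ± 0.12, adjusted p = 0.223), and Spc25 had 145, 156 and 150 in knockout, against 206, 188 and 161 in control (-0.26 ± 0.11, adjusted p = 0.36). Nuf2 had 102, 86.1 and 129.6 in knockout, against 98.0, 84.9 and 73.7 in control (0.26 ± 0.17, adjusted p = 0.544). Its litter C difference was 0.70, while litters A and B gave 0.06 and 0.02, and its groups overlapped.

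Mitotic kinesins had a median of -0.39 (-0.25 with probe sets of a gene averaged). Of the 5, 4 were lower at an unadjusted p under 0.05, beside 9.47% of all genes. The summed level of all 5 was 594, 573 and 602 in the knockout pools of litters A, B and C, against 802, 788 and 762 in the control pools. Within each group the 3 sums were close to one another, and the groups did not overlap.

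Kif20a, the motor that brings passenger proteins to the central spindle, had levels of 138, 149 and 128 in knockout, against 195, 203 and 193 in control (-0.47 ± 0.10, 1.38-fold lower, adjusted p = 0.118). All 3 litters were alike, at -0.45, -0.41 and -0.54. Kif11, the Eg5 motor that pushes spindle poles apart, had levels of 87.4, 89.9 and 85.0 in knockout, against 120.1, 109 and 143 in control (-0.43 ± 0.13, 1.34-fold lower, adjusted p = 0.213). Knockout pools were nearly equal while controls scattered, and 2 further probe sets of Kif11 gave -0.31 and -0.54.

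Kif2c, which strips microtubule ends to correct wrong attachments, had levels of 133, 123 and 151 in knockout, against 182, 173 and 192 in control (-0.39 ± 0.10, adjusted p = 0.164), with no overlap, while its 3 further probe sets gave -0.23, -0.36 and 0.01. Kif23, which with a GTPase-activating protein forms centralspindlin at the midzone, had 152, 129.5 and 116 in knockout, against 218, 189 and 132 in control (-0.38 ± 0.12, adjusted p = 0.218). Its groups overlapped, as the control of litter C was low, and its 2 further probe sets gave -0.13 and 0.04. Averaging probe sets gave -0.25 for Kif2c and -0.16 for Kif23. Kif4, a chromosome-bound kinesin and the X-linked member, had 83.5, 81.3 and 121 in knockout, against 86.7, 114 and 102 in control, with litters on both sides of 0 (-0.08 ± 0.15).

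Activators of the anaphase-promoting complex were lower without overlap, as were 10.8% of all genes. Cdc20, which brings securin and cyclin B to the complex and is the protein that the checkpoint restrains, had levels of 869, 1042 and 1011 in the knockout pools of litters A, B and C, against 1300.4, 1387 and 1278 in the control pools. Every knockout pool lay under every control pool, with litter differences of -0.57, -0.41 and -0.33. The fitted difference was -0.44 ± 0.082, or 1.35-fold lower (95% interval -0.64 to -0.24, adjusted p = 0.0899), and the other 2 probe sets of Cdc20 gave -0.42 and -0.43. Ube2c, the ubiquitin-conjugating enzyme of the complex, had levels of 606, 601 and 704 in knockout, against 705, 816 and 822 in control (-0.29 ± 0.086, adjusted p = 0.208). Here the highest knockout pool only just missed the lowest control.

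Cytokinesis genes held the 1 member that was higher at an unadjusted p under 0.05. Ect2, the exchange factor that switches on RhoA at the cleavage furrow, had levels of 261, 257 and 289 in the knockout pools of litters A, B and C, against 206, 201 and 264 in the control pools. It was higher in knockout in all 3 litters, while the control of litter C lay above the knockouts of litters A and B, so the groups overlapped. The fitted difference was 0.26 ± 0.098 (95% interval 0.02 to 0.49, adjusted p = 0.304). It shrank to 0.06 with the intensities as deposited and to 0.11 with arrays shifted to the same median.

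Prc1, which bundles the antiparallel microtubules of the midzone, had levels of 238, 277 and 278 in knockout, against 325, 359.5 and 322 in control (-0.33 ± 0.094, adjusted p = 0.197), with no overlap, but another probe set gave 0.03 and their average -0.15. Anln, the anillin scaffold of the contractile ring, had 634, 824 and 941 in knockout, against 776, 753 and 1119 in control (-0.13 ± 0.10, adjusted p = 0.615). Anln overlapped between groups and was higher in knockout in litter B, and averaging its probe sets gave -0.33.

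Both genes of chromosome structure were lower without overlap, as were 10.8% of all genes. Mki67, the Ki-67 protein that coats mitotic chromosomes and is the common histological sign of cycling cells, had levels of 483, 541 and 553 in knockout, against 706, 676 and 725 in control (-0.41 ± 0.086, 1.33-fold lower, adjusted p = 0.11). Control pools lay close together, and all 3 litters were lower, at -0.53, -0.31 and -0.38. Top2a, the topoisomerase that untangles sister chromatids, had levels of 557, 574 and 583 in knockout, against 627, 737 and 709 in control (-0.27 ± 0.083, adjusted p = 0.225).

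**Figure D3:**
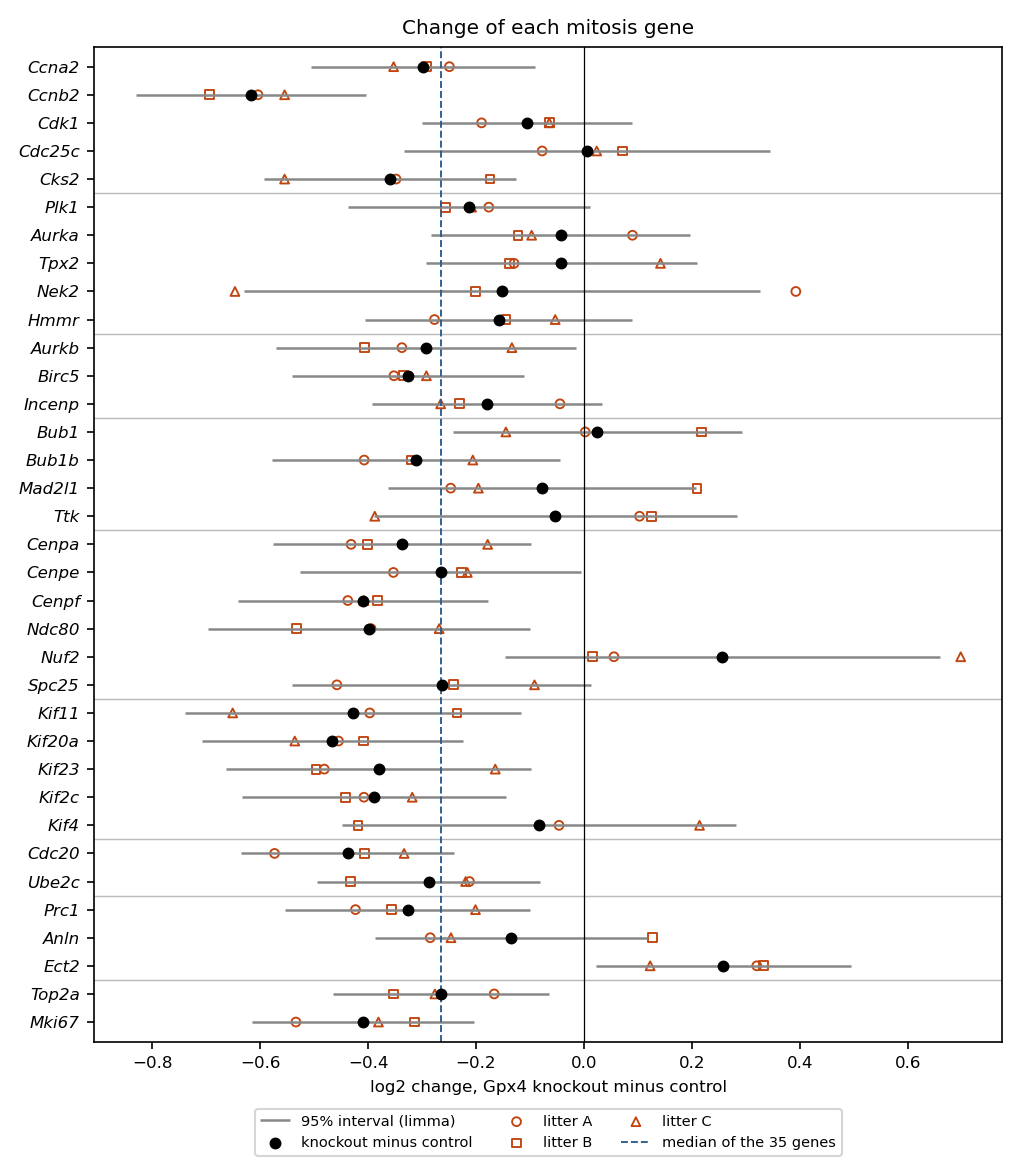
Difference of each mitosis gene, knockout minus control in log2(intensity + 16), as black points with 95% intervals as bars and the 3 litters as open symbols, grouped by role. Black points lie mostly left of 0, with Ccnb2 farthest left at -0.62 and Ect2 and Nuf2 farthest right at 0.26.

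Other probe sets of the same genes gave a partly different picture. The 35 members have 77 probe sets, and 23 members have more than 1. Of the 42 not used above 29 were lower in knockout, with a median of -0.08, and 8 were lower and 0 higher at an unadjusted p under 0.05. Over all genes 49% of such further probe sets were lower. Of the 19 with a mean intensity over 50, a limit chosen after the values were seen, 18 were lower, with a median of -0.22. The share over all genes at this limit was not computed. In 12 members at least 1 probe set had the other sign. When the probe sets of a gene were averaged, 8 members came out over 1.5 times smaller in difference, 2 over 1.5 times larger and 4 with the other sign.

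Wider lists of the mitotic machinery had medians nearer to 0. The 89 other mitosis genes comprised condensin and cohesin, further kinetochore and checkpoint genes, spindle and centrosome genes, the anaphase-promoting complex and mitotic regulators. Of these 55 were lower and 34 higher in knockout, with a median of -0.04, and 0 passed the threshold in either direction. At an unadjusted p under 0.05, 14 were lower (15.7%) and 2 higher, beside 9.47% and 8.64% of all genes. The same shares of all genes stand beside such counts for the lists below. Without the 40% dimmest probe sets 12 of the 89 were lower at that limit, beside 1581 of 12192 genes. Without litter C, 3 were called lower (Ckap2, Anapc2 and Rbl2) and 1 higher (Zwint), beside 4.52% and 4.19% of all genes. The median of the members was lower than that of these genes, and the difference of medians was not tested. With the intensities as deposited both medians were lower, at -0.46 for the members and -0.22 for the 89, while the median of all genes was -0.09.

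The anaphase-promoting complex and its inhibitor were lower in 11 of 14 genes, with a median of -0.19 and 4 at an unadjusted p under 0.05. Anapc2, the cullin of the complex, had levels of 359.5, 382 and 345 in knockout, against 477, 493 and 424 in control (-0.34 ± 0.084, adjusted p = 0.148). Fbxo5, the Emi1 inhibitor of the complex, had 150.4, 169 and 173 in knockout, against 226, 206 and 202 in control (-0.34 ± 0.11), and Anapc5 had 997, 904 and 953 in knockout, against 1197, 1055 and 1059 in control (-0.21 ± 0.075). None of these 3 overlapped between groups, but they were named for having the smallest p of the list. Of the 14 genes 6 (42.9%) had all knockout pools below all control pools, beside 10.8% of all genes.

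Spindle, centrosome and cytokinesis genes had a median of -0.04, with 12 of 19 lower and 6 of them at an unadjusted p under 0.05. Ckap2, a microtubule stabiliser, had levels of 185, 160 and 220.3 in knockout, against 283, 307 and 236 in control (-0.51 ± 0.16, adjusted p = 0.216). Nusap1, which bundles spindle microtubules near chromatin, had 218, 228 and 224 in knockout, against 269.6, 266 and 299 in control (-0.30 ± 0.095, adjusted p = 0.231). Kif14 gave -0.43, but its levels of 0.5, 1.0 and 0.4 in knockout and 6.3, 7.0 and 6.0 in control are among the dimmest on the array.

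Condensin and cohesin genes had a median of -0.06, with 12 of 17 lower and 1 at an unadjusted p under 0.05. That gene was Cdca5, sororin, which protects cohesion until anaphase, with levels of 146, 161 and 180.1 in knockout, against 193, 203 and 223 in control (-0.32 ± 0.097). Sgo2a, a shugoshin of centromeric cohesion, gave -0.30 ± 0.13, and Ncapg2, a condensin II subunit, gave 0.21 ± 0.097. The further kinetochore and checkpoint genes had a median of -0.02, with 10 of 19 lower. Zwint, which links the kinetochore to the checkpoint, was higher in knockout, with levels of 549.9, 500 and 505 in knockout, against 360.1, 355 and 414 in control (0.45 ± 0.096, adjusted p = 0.116), and its groups did not overlap. Ska1, which helps kinetochores follow shrinking microtubules, gave -0.34 ± 0.16, and Nsl1, of the Mis12 complex, gave 0.43 ± 0.20.

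Mitotic regulators had a median of 0.02 with 10 of 20 lower, and that median was -0.16 with the intensities as deposited and -0.10 with arrays shifted to the same median. Rbl2, the p130 pocket protein of the DREAM complex, had levels of 57.5, 80.4 and 80.5 in knockout, against 120, 135 and 87.5 in control (-0.54 ± 0.17, adjusted p = 0.229). E2f4, the E2F partner in the same complex, had 61.8, 60.6 and 63.2 in knockout, against 39.8, 44.1 and 48.1 in control (0.38 ± 0.14, adjusted p = 0.28). Cdc25b, a phosphatase that starts Cdk1 activation, gave -0.40 ± 0.15.

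CDK inhibitors and Mdm2 had a median of -0.21, with 5 of 8 lower. Cdkn2c, the p18 inhibitor of Cdk4 and Cdk6, had levels of 48.8, 57.3 and 67.2 in knockout, against 102, 118 and 106 in control (-0.77 ± 0.13, adjusted p = 0.0783), with no overlap. Cdkn1b, the p27 inhibitor, had 159.5, 156 and 155 in knockout, against 247, 200.2 and 218 in control (-0.46 ± 0.10, adjusted p = 0.131). Mdm2, the ubiquitin ligase and target of p53, had 448, 448 and 294 in knockout, against 262, 252 and 265 in control (0.56 ± 0.14, adjusted p = 0.163), and litter C's knockout was close to control. Cdkn1a was the brightest gene of the list, and its groups overlapped. It had 1975, 1732 and 1429.5 in knockout, against 1676, 1944 and 1297 in control (0.07 ± 0.097, adjusted p = 0.802). Without litter C, 3 of the list were called lower (Cdkn2b, Cdkn2c and Cdkn2d) and 1 higher (Mdm2), beside 4.52% and 4.19% of all genes.

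Genes of S phase and of the G1/S step did not share the members' direction. Of 20 genes 16 were higher in knockout, with a median of 0.13, which became -0.08 with the intensities as deposited and -0.02 with arrays shifted to the same median. None passed the threshold, and 0 were lower and 3 higher at an unadjusted p under 0.05, beside 9.47% and 8.64% of all genes. Ccnd1, cyclin D1, which links growth factor signals to Cdk4 and Cdk6, had levels of 1149.8, 1006 and 978 in knockout, against 647, 595 and 789.9 in control (0.62 ± 0.12, adjusted p = 0.0896), with all knockouts above all controls. Rrm2, a subunit of ribonucleotide reductase, gave 0.24 ± 0.094, and Mcm3, of the replicative helicase, gave 0.31 ± 0.13 with litter C at -0.03. Without litter C, 4 were called higher (Mcm3, Mcm6, Cdt1 and Ccnd1), beside 4.19% of all genes. Whether the mitosis and S phase lists differ from each other was not tested.

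**Figure D4:**
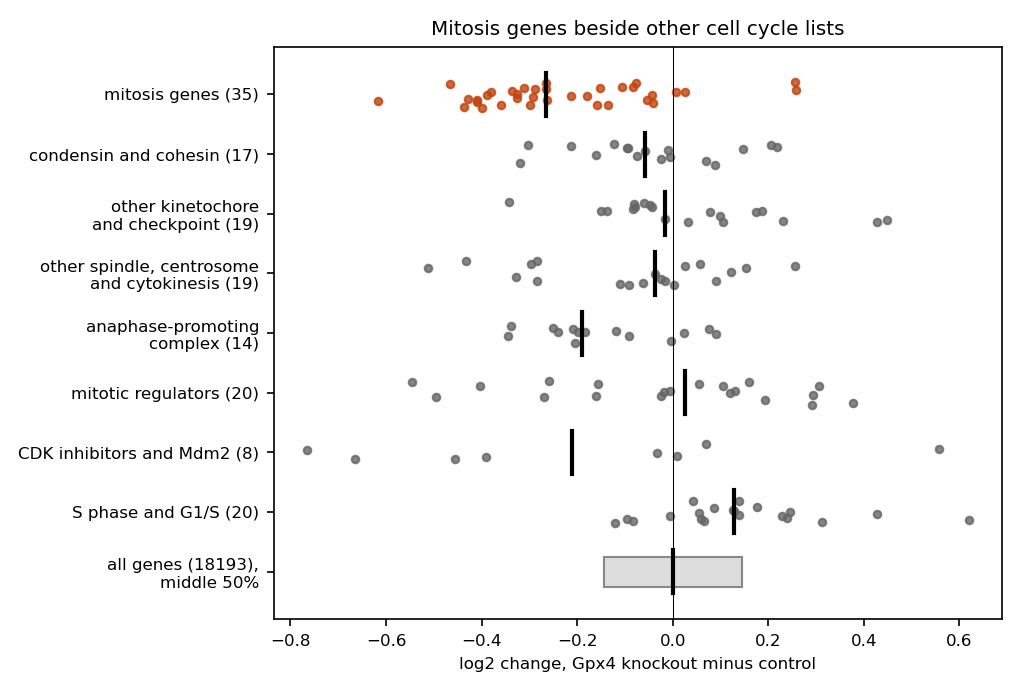
Differences, knockout minus control in log2(intensity + 16), of every gene of the mitosis list and of the other cell cycle lists, 1 point for a gene, the median of each list as a black bar and the middle 50% of all genes as a box. The mitosis genes have a median of -0.27, the other mitosis lists between -0.19 and 0.02, CDK inhibitors and Mdm2 -0.21, and the S phase list 0.13.

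Markers of cell types were read beside these differences. Krt5 and Krt14, keratins of the basal layer, were bright in both groups, with Krt5 at 6849, 6596 and 6779 in knockout, against 6974, 7049 and 6596 in control, and Krt14 at 6692, 6607 and 6740.1 in knockout, against 6808, 6278 and 6478 in control. Krt10, the suprabasal keratin, fell in knockout to 215, 252 and 284, against 590.4, 737 and 760.4 in control (-1.42 ± 0.084, adjusted p = 0.00922), and it alone of 10 keratinocyte markers passed, with 8 of 10 lower and summed levels of 25739 to 26743 in knockout, against 26242 to 29076 in control. Krt15, a further basal keratin, had levels of 11, 1.8 and 2.2 in knockout, against 268, 239 and 5.6 in control (-2.49 ± 0.65, adjusted p = 0.164), and the control of litter C was as low as the knockouts. Krt1, a suprabasal keratin, gave -1.21 ± 0.22, Trp63, the transcription factor of the basal layer, -0.43 ± 0.076, and Col17a1, of hemidesmosomes, -0.36 ± 0.11. The remaining markers were nearer to 0 or higher, with Dsp at -0.03 ± 0.074, Itgb4 at -0.07 ± 0.11 and Cdh1 at 0.16 ± 0.075. For Cdh1 all knockout pools lay above all control pools.

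Melanocyte markers were higher in knockout in 7 of 7 genes, with summed levels of 6326 to 6951 in knockout, against 4562 to 4723 in control, and Tyrp1 (0.69) and Mlana (1.11) passed. Their brightest gene, Dct, had 2038, 2268 and 2251 in knockout, against 1616, 1601 and 1535 in control. Fibroblast markers had summed levels of 1368 to 1689 in knockout, against 416 to 1228 in control, with 7 of 9 higher and none past the threshold. Vim, the brightest and the largest part of each sum, had 948, 836 and 1038 in knockout, against 225, 196 and 616 in control. The 2 that were lower, Dcn and Lum, were dim, with means of 20.9 and 6.0 in knockout, against 23.3 and 10.6 in control. Muscle markers had summed levels of 3409 to 3507 in knockout, against 2357 to 3502 in control, with 5 of 6 higher. Actg2 (at 181, 129.5 and 107 in knockout, against 38.1, 31.4 and 44.4 in control) and Myl7 (at 627, 502 and 308 in knockout, against 145, 149.6 and 68.9 in control) passed, and Acta2, the brightest, gave -0.14. Endothelial and immune markers were dim, with sums of 120.3 to 153 in knockout, against 101 to 124 in control, Pecam1 between 1.3 and 6.6 on every array and Lyz2, the brightest, at 32.1, 29.9 and 43.0 in knockout, against 31.8, 36.5 and 32.2 in control. Of these 8 markers 5 were higher in knockout and none passed. Cd74 had 24.1, 25.8 and 33.5 in knockout, against 13.4, 7.4 and 20 in control (0.58 ± 0.17, adjusted p = 0.2), without overlap. The part of these cell types in the lower mitosis levels was not tested.

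The direction of the list held when the processing was changed. Over 16 alternative settings between 28 and 33 members were lower in knockout, and the median ran between -0.46 with the intensities as deposited and -0.18 when a gene's probe sets were averaged. Ccnb2 stayed negative in all 16, between -0.81 and -0.54, as did Cdc20, between -0.61 and -0.36, and Mki67, between -0.59 and -0.35. Nuf2 and Ect2 stayed positive in all 16, between 0.04 and 0.38 and between 0.06 and 0.38.

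**Figure D5:**
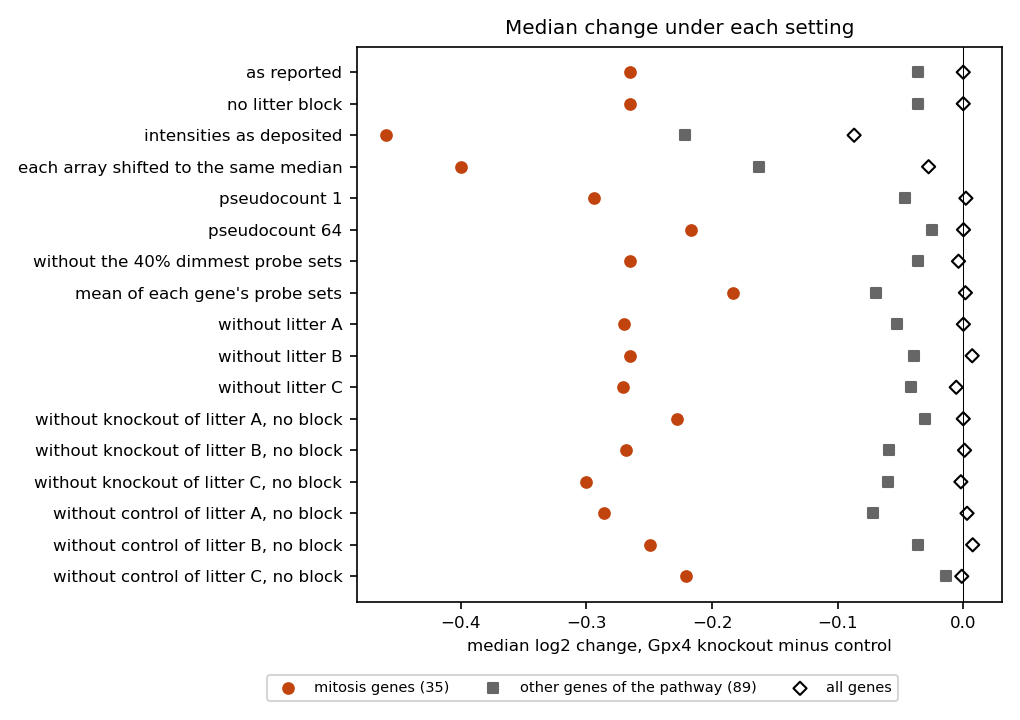
Median difference of the mitosis genes, knockout minus control in log2 units, under the reported setting and 16 alternatives, beside the medians of 89 other mitosis genes and of all genes under the same setting. Every median of the mitosis genes is below 0, between -0.46 and -0.18, while that of all genes stays between -0.09 and 0.01.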

How the data were processed

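Total RNA of 6 pools of cultured keratinocytes (3 Gpx4 knockout, 3 control) was measured on 1-colour arrays, and per the labels it was extracted with Trizol and labelled with biotin by in vitro transcription. The table the authors deposited holds 1 linear intensity for each probe set and array. Background correction, summarisation and scaling are not given in the sources used here, and array trimmed means (2% at each end) ran between 72.8 and 114.3, so arrays were quantile-normalized. After 64 control probe sets were left out, 45037 were tested as log2(intensity + 16) with lmFit and eBayes (intensity trend) of limma 3.58.1 in R 4.3.3, with litter as a block and two-sided p-values adjusted by Benjamini-Hochberg at 0.05. This statistic was tested on simulated data. The labels name the litter that pairs the arrays, and residuals of same-litter arrays correlated at 0.17, 0.05 and 0.21 in litters A, B and C.

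Symbols came from the platform annotation table, updated to RefSeq genes of GRCm38.p6, by which 34945 probe sets had 1 gene, 932 several and 9160 were not listed. A gene was read from its probe set of highest mean intensity. All members are named, as are the 3 genes of smallest p in each pathway list, those called without litter C and Cdkn1a. For markers, the brightest and those that passed are named, with all keratinocyte markers, Pecam1, Cd74, Dcn and Lum besides. Ccnb1 and Trp53 are not reported here. The members and lists were chosen with earlier results of these data known. The 16 alternatives left out the block, changed normalization, pseudocount, filter or probe set rule, or left out litters or arrays.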

Additional observations from a re-analysis of the deposited data

How the results depend on the processing

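Calls depended on which arrays and probe sets were tested. Levels under 16, the value added before taking logs, were not tested against background and need caution. Leaving out the litter block (no replicate block) left 0 members called and the median of the members at -0.27, with 16 in place of 19 lower at an unadjusted p under 0.05. With the intensities as deposited the median was -0.46 for the mitosis genes and -0.22 for the 89 other genes, and 10 and 6 were lower at an unadjusted p under 0.05. With arrays shifted to the same median the medians were -0.40 and -0.16. When probe sets of a gene were averaged they were -0.18 and -0.069, and a pseudocount of 64 gave -0.22 for the members. A pseudocount of 1 called 1 member lower (Ccnb2, adjusted p = 0.0309), beside 1.13% of all genes. Without the 40% dimmest probe sets 2 were called lower (Ccnb2, 0.0227, and Cdc20, 0.033), beside 2.99% of 12192 genes. Cdkn2c was called lower under both of these settings and with arrays shifted to the same median (adjusted p = 0.0253 to 0.045), and Ccnd1 was called higher without the dimmest probe sets (0.0301).

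Leaving out 1 litter gave 0 to 5 members called lower, the highest without litter C, with 7 to 20 lower at an unadjusted p under 0.05. For the 89 other genes it gave 0 to 3 called lower, 0 to 1 higher and 3 to 19 lower at an unadjusted p. Over all genes 0% to 4.52% were then called lower and 0% to 4.19% higher, again the most without litter C. Leaving out 1 array, with no replicate block, gave 4 members called lower without the control of litter C (Ccnb2, Kif20a, Cdc20 and Mki67, median -0.22), while 728 of all genes (4%) were called lower and 621 (3.41%) higher, and 3 of the 89 lower and 1 higher. Members lower at an unadjusted p numbered 10 without the knockout of litter A (median -0.23), 11 without that of B and 10 without the control of B, and the median was -0.30 without the knockout of C. For the 89, 7 were lower at an unadjusted p without the knockout of A, and 8 without the control of A (median -0.072) or of B.

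Sign changes touched 8 members, none of them called. With the intensities as deposited, arrays shifted to the same median and probe sets averaged, Cdc25c gave -0.15, -0.090 and -0.15, and Bub1 gave -0.18, -0.12 and -0.13. Averaged probe sets gave 0.082 for Nek2 and 0.040 for Ttk. Leaving out 1 litter gave lowest and highest values of -0.027 and 0.048 for Cdc25c, -0.071 and 0.11 for Bub1, -0.42 and 0.096 for Nek2, -0.14 and 0.11 for Ttk, -0.13 and 0.0063 for Tpx2, -0.22 and 0.0069 for Mad2l1, -0.23 and 0.084 for Kif4 and -0.27 and -0.060 for Anln. Leaving out 1 array turned signs as follows. Without the knockout of litter A the values were 0.025 for Tpx2, 0.046 for Mad2l1 and 0.020 for Anln. Without the knockout of litter B the values were -0.017 for Bub1 and 0.0046 for Kif4. Without the knockout of litter C the values were -0.032 for Cdc25c, 0.044 for Nek2 and -0.038 for Bub1. Without the control of litter A the values were -0.068 for Bub1. Without the control of litter B the values were -0.042 for Cdc25c and -0.029 for Bub1. Without the control of litter C the values were 0.057 for Mad2l1, 0.11 for Ttk and 0.046 for Anln. The cause of these changes was not tested.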
